A study of Mus musculus with 15 samples.

Results

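The 7 genes described here, Cyp1a1, Cyp1a2, Cyp1b1, Ahr, Arnt, Ahrr and Tiparp, belong to the aryl hydrocarbon receptor pathway and were measured in 15 libraries of primary mouse hepatocytes. They were taken by name from the 56953 genes listed for each library, and all 7 passed the filter on low counts. They were chosen with the CCl4 comparisons already known, because Cyp1a1 and Cyp1a2 part there. Their CCl4 differences are therefore given as a description without a test. Tests are given only for the genotype comparisons, the interaction and the genotype difference in the Cyp1a1 to Cyp1a2 ratio. The CCl4 comparisons use the mineral oil and the CCl4 libraries alike. Each of these tests therefore reuses libraries on which the genes were chosen, and its values describe the members only.

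The study compared wild-type (WT) mice and mice with the ΔEGFR transgene, each given either mineral oil or carbon tetrachloride (CCl4), a toxin that hepatocyte P450 enzymes turn into a reactive radical. There were 4 libraries of WT mice given mineral oil, 3 of WT mice given CCl4, 4 of ΔEGFR mice given mineral oil and 4 of ΔEGFR mice given CCl4. The promoter and the receptor part of the transgene, the strain, age, dose and time of treatment are not given in the sources used here. Replicate numbers used here only name libraries, in accession order. Nothing in the labels says which libraries came from separate mice, so p-values measure only the spread between these libraries, which may be technical.

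The aryl hydrocarbon receptor (AHR) waits in the cytosol bound to HSP90. When it binds a planar ligand, such as a dioxin or a tryptophan metabolite, it enters the nucleus, pairs with ARNT and binds DNA sites with the core GCGTG. Cyp1a1, Cyp1a2 and Cyp1b1 encode P450 enzymes that oxidise such ligands, and all are known targets of the receptor. Cyp1a1 is nearly silent in unexposed liver, whereas Cyp1a2 is an abundant enzyme of the hepatocytes around the central vein. Ahrr, a repressor that competes for ARNT, and Tiparp, an ADP-ribosyltransferase that acts on AHR, are targets that feed back on the receptor.

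The promoters of the members are shown because the enzymes and feedback genes are known receptor targets whose levels moved apart here. The sequences are the RefSeq bases before the start of each gene in the build GRCm38.p6, on the strand of the gene. That build differs from the GRCm39 build used for the reads, and no coordinate was carried between builds. Capitals mark each GCGTG on either strand (CACGC when it lies on the opposite strand). The windows are chr9:57697363-57697612 (plus strand) for Cyp1a1, chr9:57683704-57683905 (minus strand) for Cyp1a2, chr17:79715062-79715311 (minus strand) for Cyp1b1, chr13:74292332-74292581 (minus strand) for Ahrr, chr3:65528197-65528409 (plus strand) for Tiparp and chr3:95434140-95434387 (plus strand) for Arnt. Windows are printed only as far as the first annotated exon, and each search covered the full 250 bases.
Cyp1a1: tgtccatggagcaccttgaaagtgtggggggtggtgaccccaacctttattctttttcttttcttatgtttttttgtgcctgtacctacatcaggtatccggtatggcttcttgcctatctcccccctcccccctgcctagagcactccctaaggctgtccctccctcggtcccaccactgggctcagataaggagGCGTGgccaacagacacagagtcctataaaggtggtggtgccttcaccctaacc
Cyp1a2: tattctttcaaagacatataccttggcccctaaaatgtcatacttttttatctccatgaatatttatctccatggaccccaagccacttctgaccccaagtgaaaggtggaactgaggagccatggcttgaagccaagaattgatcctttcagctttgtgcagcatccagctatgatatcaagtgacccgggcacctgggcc
Cyp1b1: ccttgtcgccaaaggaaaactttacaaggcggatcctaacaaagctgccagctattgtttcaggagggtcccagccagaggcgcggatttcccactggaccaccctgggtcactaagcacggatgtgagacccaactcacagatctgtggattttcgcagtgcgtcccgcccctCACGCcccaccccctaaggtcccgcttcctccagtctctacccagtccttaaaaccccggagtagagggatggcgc
Ahrr: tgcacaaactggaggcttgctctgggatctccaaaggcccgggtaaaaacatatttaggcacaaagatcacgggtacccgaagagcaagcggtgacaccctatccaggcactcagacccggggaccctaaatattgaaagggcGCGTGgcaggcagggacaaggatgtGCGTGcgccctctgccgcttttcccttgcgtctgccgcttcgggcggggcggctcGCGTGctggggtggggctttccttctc
Tiparp: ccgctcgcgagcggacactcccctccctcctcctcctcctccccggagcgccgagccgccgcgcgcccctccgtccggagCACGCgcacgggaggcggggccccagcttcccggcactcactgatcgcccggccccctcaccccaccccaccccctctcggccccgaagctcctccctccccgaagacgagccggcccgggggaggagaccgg
Arnt: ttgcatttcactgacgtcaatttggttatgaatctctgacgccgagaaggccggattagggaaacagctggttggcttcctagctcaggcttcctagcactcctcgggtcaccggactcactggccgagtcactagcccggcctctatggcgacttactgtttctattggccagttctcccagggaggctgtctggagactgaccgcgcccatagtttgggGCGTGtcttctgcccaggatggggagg

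GCGTG was found 1 time in the Cyp1a1 window, 54 bases before the start, and 0 times in that of Cyp1a2. It was found 1 time each for Cyp1b1, Arnt and Tiparp and 3 times for Ahrr, at 107, 82 and 27 bases before the start. Of 32851 RefSeq promoter windows of this length, 28.2% held the motif and 2.77% held it at least 3 times. TATAAA, also searched on both strands, was found in the windows of Cyp1a1 and Cyp1a2 and in 12.4% of all windows. Ahr was named only. These matches describe letters in a short window and not binding. On chromosome 9 of the same build, Cyp1a1 (start 57697613, plus strand) and Cyp1a2 (start 57683655, minus strand) lie head to head with their starts 13958 bases apart.

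Cyp1a1 and Cyp1a2 also share sequence inside the genes, which bears on how their reads were counted. Their coding sequences were identical at 76.9% of 1535 aligned bases. The longest identical run had 137 coding bases, at positions 373 to 509 of the Cyp1a1 transcript and 291 to 427 of the Cyp1a2 transcript in GENCODE M21, and it is shown because reads inside it fit either gene.
Shared run: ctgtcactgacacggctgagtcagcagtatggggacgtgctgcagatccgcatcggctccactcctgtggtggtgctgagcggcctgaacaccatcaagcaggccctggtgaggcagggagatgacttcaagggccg
The deposited counts showed such shared reads: the Cyp1a1 and Cyp1a2 counts were fractional in each library, while their sum was whole, within 0.011, in 15 of 15. Counts of Cyp1b1, Ahr, Ahrr and Tiparp were whole in 15 of 15 libraries, and no word of 25 bases was shared between Cyp1b1 and either neighbour in the family. The Cyp1a1 count was 0.0349 to 0.145% of the Cyp1a2 count in mineral oil and 0.474 to 1.12% with CCl4, so the level of Cyp1a1 is uncertain to the extent that reads of the abundant Cyp1a2 were placed on it, which was not tested.

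Total counts were 51.7 to 61.9 M (M, mega) in 6 libraries and 96.2 to 155.4 M in 9. The lower range held 3 of 4 WT mineral oil, 2 of 3 WT CCl4, 0 of 4 ΔEGFR mineral oil and 1 of 4 ΔEGFR CCl4 libraries. All 12 hepatocyte markers were above 0 in each group, with a summed level of 64810 to 142117 TPM (the level scaled for transcript length and library size). Markers of other cells were present too, and some of them moved with CCl4. Summed macrophage markers were at 38.9 to 2072 TPM in mineral oil and at 3015 to 11011 with CCl4, and stellate cell markers at 16 to 122 and at 94.2 to 483, with none of the 18 and 16 genes at 0 throughout a group. Cholangiocyte markers were at 16.9 to 190 and at 293 to 1100 TPM. Endothelial markers overlapped, at 34.6 to 427 and 149 to 486 TPM, as did lymphocyte and neutrophil markers, at 5.4 to 5204 and 87.8 to 1173. The part of all these markers in the results below was not tested, and in bulk RNA fewer cells of a type cannot be told from less RNA per cell. WT mineral oil replicate 1 stood apart, with lymphocyte and neutrophil markers summing to 5204 TPM against at most 1173 in the other libraries, and values without it are given beside the results that it turned or moved most.

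Cyp1a1 was low in all mineral oil libraries and higher in all CCl4 libraries of both genotypes. Its level was 0.18, 0.35, 0.20 and 0.39 TPM in the 4 WT mineral oil libraries and 0.92, 1.3 and 1.43 TPM in the 3 given CCl4. In ΔEGFR it was 0.33, 0.31, 0.22 and 0.26 TPM in mineral oil and 1.80, 1.99, 4.74 and 5.23 TPM with CCl4. The ΔEGFR CCl4 libraries thus fell into a lower and a higher pair, and even the lower pair lay above the 3 WT CCl4 libraries. In order, the means were 0.28 ± 0.0497 TPM (SD, n = 4) in ΔEGFR mineral oil, 0.28 ± 0.106 (n = 4) in mineral oil WT libraries, 1.22 ± 0.265 (n = 3) in those of WT with CCl4 and 3.44 ± 1.8 (n = 4) in ΔEGFR CCl4. The mineral oil groups overlapped, and no other neighbours in this order did.

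On the CPM scale, which is the count scaled to library size with TMM factors, Cyp1a1 was 3-fold higher with CCl4 in WT (log2 fold change 1.59 ± 0.50, standard error) and 8.37-fold higher in ΔEGFR (3.06 ± 0.49). These rest on counts of 22.09 to 95.32 in mineral oil and 78.30 to 1101.84 with CCl4. Within the libraries of lower depth the WT difference in mean log2 CPM was 1.40 (3 against 2 libraries), and within those of higher depth it was 2.24 (1 against 1). In ΔEGFR only the higher depth allowed a comparison, which gave 2.64 (4 against 3). Even at its highest, Cyp1a1 stayed far below its neighbour on the chromosome.

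Cyp1a2 was the most abundant of the 7 genes, and CCl4 went with a lower level in WT. It stood at 505.62, 579.08, 880.60 and 423.46 TPM in the WT mineral oil libraries and at 232.65, 347.36 and 280.77 TPM after CCl4, with no overlap. In ΔEGFR it stood at 342.37, 549.02, 464.86 and 647.74 TPM in mineral oil and at 468.69, 627.73, 894.96 and 695.69 TPM with CCl4, and these groups overlapped. WT CCl4 had the lowest mean, 287 ± 57.6 TPM (n = 3), followed by 501 ± 129 in ΔEGFR mineral oil, 597 ± 199 in WT mineral oil and 672 ± 177 in ΔEGFR CCl4 (n = 4 each). The last 3 groups overlapped one another, and 1 ΔEGFR mineral oil library (342.37 TPM) lay below the highest WT CCl4 library (347.36 TPM).

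The fitted difference for Cyp1a2 with CCl4 was −1.57 ± 0.35 on the log2 CPM scale in WT, 2.97-fold lower, and −0.10 ± 0.31 in ΔEGFR. Its direction in ΔEGFR depends on the scaling: it was 0.36 without a scaling factor and 0.42 in a limma fit of log2(TPM + 1), against −1.12 and −1.02 in WT. Dropping the factor moved the median of all genes by 0.40 in WT and 0.44 in ΔEGFR with CCl4. Within depth ranges the WT difference was −1.48 (3 against 2 libraries) and −1.50 (1 against 1).

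**Figure D1:**
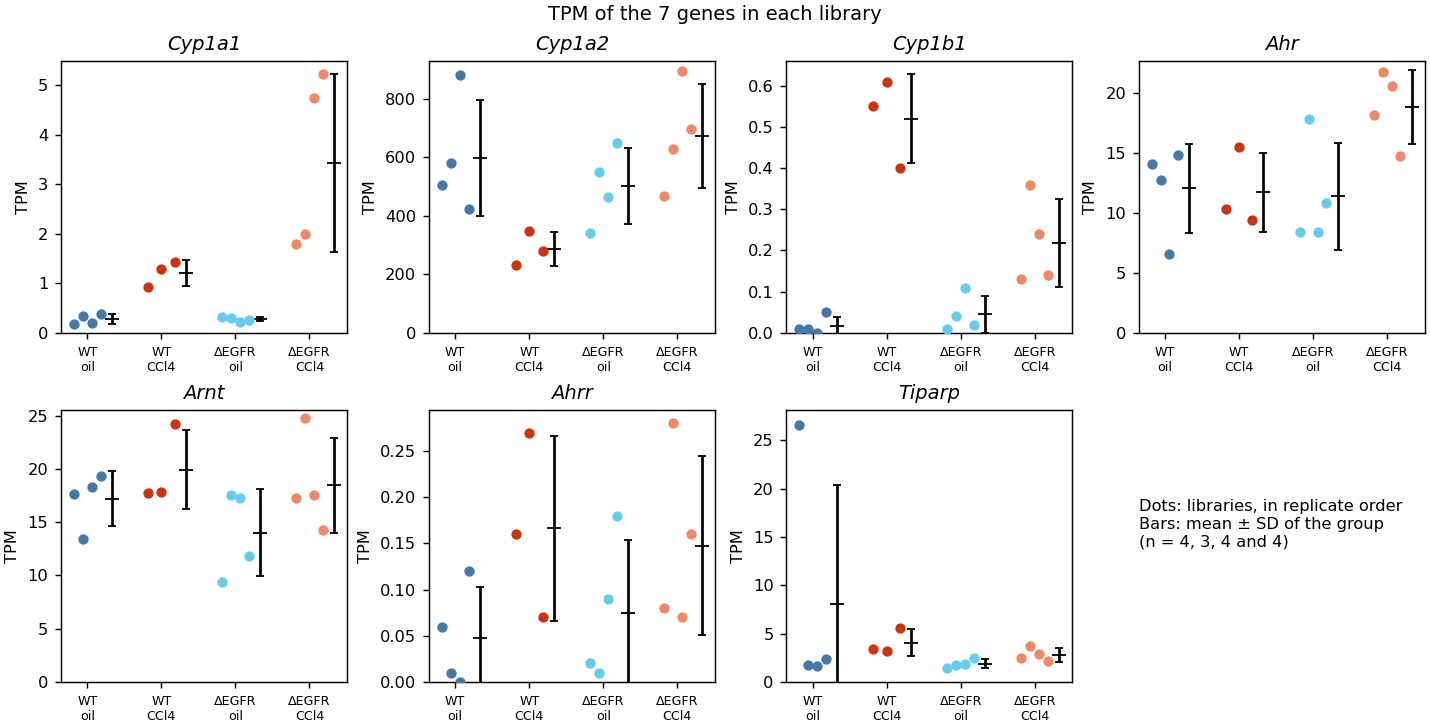
TPM (vertical axes, linear, each gene with its own range) of the 7 genes in each library, by group, with bars for the mean ± SD (n = 4, 3, 4 and 4, drawn down to 0 at most). Cyp1a1 with CCl4 lies at 0.92 to 1.43 TPM in WT and 1.80 to 5.23 TPM in ΔEGFR, all above the mineral oil libraries, while Cyp1a2 has its lowest mean in WT CCl4.

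The parting of the pair can be read from the ratio of their levels in each library, which does not depend on how libraries are scaled. The log2 ratio of Cyp1a1 to Cyp1a2 TPM was −11.46, −10.69, −12.10 and −10.08 in mineral oil and −7.98, −8.06 and −7.62 with CCl4 in WT. In ΔEGFR it was −10.02, −10.79, −11.05 and −11.28 in mineral oil and −8.02, −8.30, −7.56 and −7.06 with CCl4. All 7 CCl4 libraries thus lay above all 8 mineral oil libraries. Cyp1a2 exceeded Cyp1a1 by 1037 to 4403 times in mineral oil and by 133 to 315 times with CCl4.

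The mean log2 ratio shifted with CCl4 by 3.20 in WT, from −11.08 ± 0.88 (SD, n = 4) to −7.89 ± 0.24 (n = 3), and by 3.05 in ΔEGFR, from −10.78 ± 0.55 to −7.74 ± 0.55 (n = 4 each). In WT the shift combined a higher Cyp1a1 with a lower Cyp1a2, and in ΔEGFR it lay in Cyp1a1. Between the genotypes the ratio differed by 0.15 under CCl4 (two-sided exact permutation test, p = 0.657, adjusted over 2 tests p = 0.657) and by 0.30 in mineral oil (p = 0.6, adjusted p = 0.657). The genes were chosen because the pair parts with CCl4 in these same libraries, so these differences describe the pair and support nothing. The 3 WT CCl4 ratios lay inside the range of the 4 ΔEGFR CCl4 ratios, and 3 against 4 libraries cannot give a p below 0.0286. Both genes were higher in ΔEGFR than in WT under CCl4, so their ratio differed less than either gene did.

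**Figure D2:**
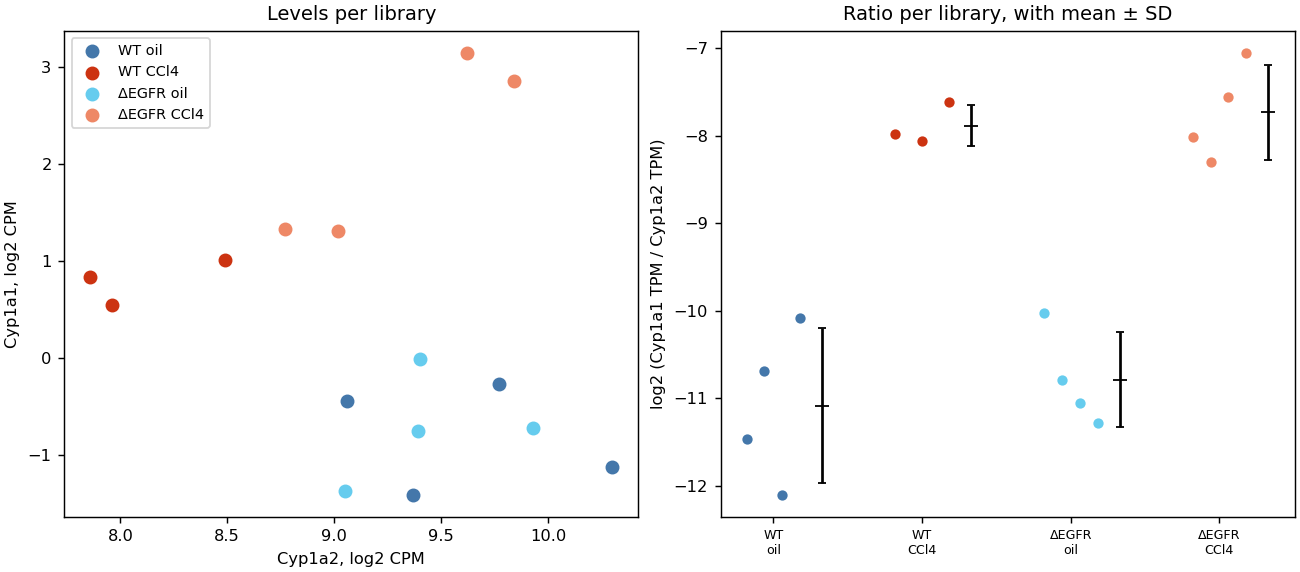
Left, log2 CPM of Cyp1a1 against log2 CPM of Cyp1a2, with 1 point per library. Right, log2 ratio of their TPM per library with mean ± SD. Each of the 7 CCl4 ratios (−8.30 to −7.06) lies above each of the 8 mineral oil ratios (−12.10 to −10.02), and the genotypes overlap within each treatment.

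Across the 15 libraries Pearson's r of log2 CPM between Cyp1a1 and Cyp1a2 was −0.15, a description over libraries that share their treatment groups. Among the 4 ΔEGFR CCl4 libraries, those with the 2 highest Cyp1a1 levels also had the 2 highest Cyp1a2 levels, 894.96 and 695.69 TPM. The correlation of Cyp1a1 with Ahrr was 0.67 and that of Cyp1a2 with Cyp1b1 was −0.73.

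Cyp1b1, the family member known mainly from tissues and cells outside the hepatocyte lineage, such as stellate cells, was near 0 in mineral oil and higher with CCl4. In WT its counts were 2, 2, 0 and 10 with mineral oil and 76, 111 and 180 with CCl4. They were 5, 18, 43 and 6 in ΔEGFR mineral oil and 54, 94, 37 and 48 in ΔEGFR CCl4. At the different depths of these libraries this came to 0 to 0.188 CPM and 0.861 to 1.71 CPM in WT, and to 0.0513 to 0.298 CPM and 0.342 to 0.742 CPM in ΔEGFR, without overlap in either genotype.

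The fitted difference for Cyp1b1 with CCl4 was 4.46 ± 0.92 in WT and 1.83 ± 0.77 in ΔEGFR, as log2 fold changes that depend on the prior count at such low levels. Leaving out single libraries moved the WT value between 4.04, without WT mineral oil replicate 1, and 6.06, without replicate 4 of that group, the one with 10 counts. Unlike Cyp1a1, Cyp1b1 was lower in ΔEGFR than in WT under CCl4. Stellate cell markers, summed, were at 94.2 to 338 TPM in WT CCl4 and 119 to 483 TPM in ΔEGFR CCl4, and their part in the Cyp1b1 values was not tested. Its passage through the low-count filter (0.101 CPM) rested on CCl4 libraries, as did that of Ahrr: Cyp1b1 was over it in 7 of 7 CCl4 and 3 of 8 mineral oil libraries, and Ahrr in 7 of 7 and 1 of 8.

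Ahr, the receptor itself, was detected at a moderate level in each library. It measured 14.08, 12.72, 6.62 and 14.82 TPM with mineral oil in WT, 10.35, 15.52 and 9.38 TPM with CCl4 in WT, 8.43, 17.82, 8.46 and 10.83 TPM in ΔEGFR mineral oil and 18.22, 21.76, 20.58 and 14.75 TPM in ΔEGFR CCl4. The CCl4 and mineral oil groups overlapped on the CPM scale in each genotype, with log2 fold changes of −0.49 ± 0.29 in WT and 0.17 ± 0.27 in ΔEGFR. By mean TPM the lower 3 groups, at 11.4 ± 4.43, 11.8 ± 3.3 and 12.1 ± 3.73, did not differ beyond their spread, and ΔEGFR CCl4 stood at 18.8 ± 3.09.

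Arnt, the DNA-binding partner of AHR and of hypoxia-inducible factors, had the smallest standard errors of the 7 genes. Its level ran from 9.35 TPM in a ΔEGFR mineral oil library to 24.75 TPM in a ΔEGFR CCl4 library. Its log2 fold change with CCl4 was −0.26 ± 0.11 in WT, where the groups did not overlap in CPM, and −0.10 ± 0.10 in ΔEGFR. Without a scaling factor these became 0.18 and 0.36, so that no direction can be given for Arnt. By TPM the WT groups overlapped, at 13.46 to 19.33 in mineral oil and 17.74 to 24.19 with CCl4.

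Ahrr, the repressor of the receptor, was barely detected. Its counts were 29, 2, 0 and 6 with mineral oil in WT, 16, 19 and 34 with CCl4 in WT, 9, 3, 7 and 3 in ΔEGFR mineral oil and 32, 69, 12 and 40 in ΔEGFR CCl4. In CPM the ΔEGFR groups did not overlap (0.0243 to 0.0924 in mineral oil and 0.202 to 0.544 with CCl4), and the log2 fold change was 2.62 ± 0.75. The WT groups overlapped because of WT mineral oil replicate 1, with 1.29 ± 0.77 over all libraries and 2.18 without that one. By TPM, which weighs the transcript forms, the ΔEGFR groups did overlap, at 0.01 to 0.18 and 0.07 to 0.28.

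Tiparp, the other feedback gene, was set by 1 library. It measured 26.58, 1.72, 1.63 and 2.38 TPM with mineral oil in WT and 3.44, 3.16 and 5.63 TPM with CCl4 in WT. In ΔEGFR it measured 1.41, 1.76, 1.85 and 2.49 TPM in mineral oil and 2.43, 3.74, 2.84 and 2.16 TPM with CCl4. The log2 fold change with CCl4 in WT was −1.35 ± 0.81 with replicate 1 of WT mineral oil and 0.67 without it, and in ΔEGFR it was 0.01 ± 0.72. In that replicate the summed level of 21 early genes known to rise during tissue dissociation was 3251 TPM, against 734, 1337 and 1504 TPM in the others of its group and 1415 to 3371 TPM in WT CCl4, and its part in the Tiparp level was not tested.

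With CCl4, the groups of 4 of the 7 genes did not overlap in WT (Cyp1a1 and Cyp1b1 higher, Cyp1a2 and Arnt lower), beside 24.1% of all 17975 tested genes. In ΔEGFR it was 3 of 7 (Cyp1a1, Cyp1b1 and Ahrr, all higher), beside 21.6%. Nothing is read from these counts, since the genes were chosen on these contrasts.

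Genotype was tested with edgeR's quasi-likelihood test over all 17975 genes with Benjamini-Hochberg adjustment, and 0 of the 7 genes were called in any of its contrasts, as were 0% of all genes. In mineral oil, 0 of 7 had groups that did not overlap, beside 2.73% of all genes. The CCl4 contrasts on which the genes were chosen use the mineral oil libraries too, so the values here describe the members only. Cyp1a1 differed there by 0.12 ± 0.46 (log2, ΔEGFR against WT, adjusted p = 0.96; −0.07 without WT mineral oil replicate 1) and Cyp1a2 by −0.22 ± 0.31 (adjusted p = 0.856). Of the 7 genes, Arnt, at −0.27 ± 0.10, and Tiparp, at −1.89 ± 0.74, had an unadjusted p under 0.05, and each had an adjusted p = 0.713. Without WT mineral oil replicate 1 the Tiparp difference was 0.13 (adjusted p = 0.913). The early dissociation genes were lower in ΔEGFR too, 17 of 21 in mineral oil and 20 of 21 under CCl4 with 0 called. Their medians were −0.97 in mineral oil and −0.59 under CCl4, each beside −0.01 over all genes. In mineral oil their summed level was 3251 TPM in WT replicate 1 and 734, 1337 and 1504 TPM in the others of that group. In ΔEGFR mineral oil it was 570 to 1773 TPM, and the medians without that replicate were not computed. The part of these genes in the Tiparp differences was not tested. At an unadjusted p under 0.05, 6.66% of all genes passed in the mineral oil contrast.

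Under CCl4 the ΔEGFR and WT libraries did not overlap for 5 of the 7 genes, beside 5.06% of all genes. The genes were chosen on CCl4 contrasts that use these same libraries, so the counts and values here describe the members only. Nothing is read from the counts. Cyp1a1, Cyp1a2 and Ahr were higher in each ΔEGFR library than in each WT library (3 of 7, beside 2.68% of all genes), and Cyp1b1 and Tiparp were lower, on the CPM scale. Cyp1a2 differed by 1.25 ± 0.35, 2.37-fold (edgeR, adjusted p = 1), and was higher in 4 of 4 ΔEGFR libraries than in each of the 3 WT libraries. Cyp1a1 differed by 1.59 ± 0.51, 3.02-fold (adjusted p = 1). These were the only 2 members with an unadjusted p under 0.05, which 2.29% of all genes had, and neither passed the adjustment. The same direction held within the ranges of depth: Cyp1a1 differed by 2.07 (2 WT against 1 ΔEGFR library) and 1.09 (1 against 3), and Cyp1a2 by 1.62 and 1.27.

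Ahr differed by 0.62 ± 0.29 (edgeR, adjusted p = 1) and Cyp1b1 by −1.34 ± 0.79 (adjusted p = 1). Tiparp differed by −0.53 ± 0.77, Arnt by −0.11 ± 0.11 and Ahrr by 0.36 ± 0.75, each with an adjusted p of 1. By TPM the CCl4 groups of Ahr and of Tiparp overlapped. Summed macrophage markers were at 3015 to 11011 TPM in WT CCl4 and 3315 to 9563 TPM in ΔEGFR CCl4, and their part in these differences was not tested.

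The interaction asks whether CCl4 moved a gene differently in ΔEGFR than in WT. It was 1.47 ± 0.46 for Cyp1a2 (edgeR, adjusted p = 1), 1.48 ± 0.68 for Cyp1a1 (adjusted p = 1) and −2.62 ± 1.16 for Cyp1b1 (adjusted p = 1). It is the difference of the CCl4 contrasts on which the genes were chosen, so these values describe the members and support nothing. The Cyp1b1 value ran from −4.24 to −1.98 over left-out libraries. No member and 0% of all genes were called, while 568 genes (3.16%) had an unadjusted p under 0.05. DESeq2 called 2 genes and limma 1, none of them members. The interactions of Cyp1a1 and Cyp1a2 share their libraries and their scaling and are not separate evidence.

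**Figure D3:**
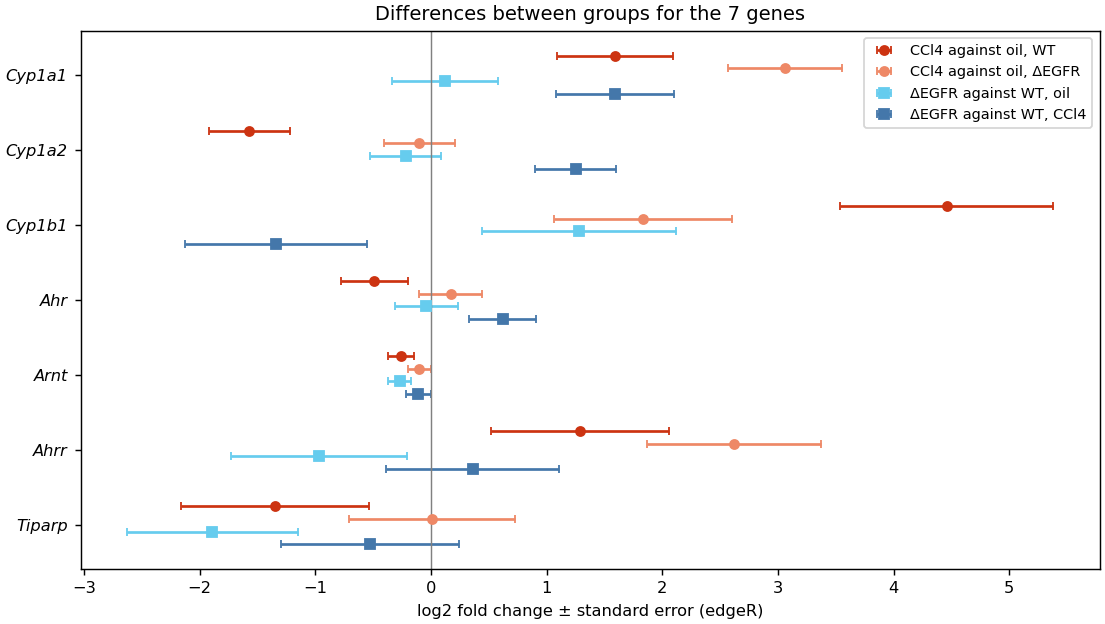
Log2 fold change ± standard error from edgeR (horizontal axis) for each of the 7 genes in 4 comparisons, with circles for CCl4 against mineral oil and squares for ΔEGFR against WT. Cyp1a1 lies to the right in both CCl4 comparisons (1.59 and 3.06), and Cyp1a2 lies to the left in WT (−1.57) and near 0 in ΔEGFR (−0.10).

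Other genes of the pathway were counted in 6 lists, with an adjusted p under 0.05 as the call. In WT, CCl4 went with 4 of these genes higher and 25 lower, and in ΔEGFR with 2 higher and 11 lower. The lists held 24, 20, 18, 12, 16 and 19 tested genes, in the order given below. Cyp2a5 and Tbx3 recur between lists and were not counted again. Of all tested genes, 5.31% were called higher and 7.2% lower in WT, and 1.77% and 2.38% in ΔEGFR, together 12.5% and 4.15%. Without WT mineral oil replicate 1 the counts were 10 and 41 in WT, and 5 and 21 in ΔEGFR. Calls over all 17798 genes then tested rose too, to 2583 higher and 2528 lower in WT and 992 and 1153 in ΔEGFR.

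Of 24 other known AHR targets tested, 1 rose and 2 fell with CCl4 in WT, a share like that of all genes, with a median log2 fold change of 0.16 beside −0.03 over all genes. In ΔEGFR edgeR called 0, DESeq2 called 0 higher and 1 lower, limma called 2 higher and 0 lower, and the median was −0.06 beside −0.02. Over all genes in ΔEGFR, DESeq2 called 1334 higher and 1064 lower of 30606, and limma 2129 and 142 of 17975. In WT the single targets spread between −2.64 and 3.65, and in ΔEGFR between −1.67 and 2.10. At an unadjusted p under 0.05 there were 9 in WT and 5 in ΔEGFR, beside 28.9% and 24.7% of all genes. Over left-out libraries the WT counts ran from 0 to 5 higher and 0 to 4 lower, with 5 and 4 without WT mineral oil replicate 1. Without that replicate, 2583 of all 17798 genes were called higher and 2528 lower in WT. Cd36, a fatty acid transporter that macrophages also express, rose by 3.03 ± 0.76 (edgeR, adjusted p = 0.0235). Ugt1a6b, a glucuronosyltransferase, fell by 1.03 ± 0.26 (adjusted p = 0.0238), and Enpp2, which makes lysophosphatidic acid, fell by 1.17 ± 0.30 (adjusted p = 0.024). Nqo1, a quinone reductase and textbook target named here after its values were seen, differed by 0.53 ± 0.44 in WT (adjusted p = 0.458) and −0.17 ± 0.41 in ΔEGFR (adjusted p = 0.828).

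Of 20 chaperones, partners and co-regulators of the receptor, 0 rose and 3 fell in WT and 1 fell in ΔEGFR, with medians of −0.04 and 0.08. In WT the single genes spread between −0.68 and 2.40, and in ΔEGFR between −0.48 and 2.44. With 1 library left out the counts of genes that fell ran from 1 to 3 in WT and 0 to 1 in ΔEGFR. Ncoa2 and Ncoa1, coactivators of nuclear receptors and AHR, fell in WT, with log2 fold changes of −0.68 ± 0.13 (edgeR, adjusted p = 0.00782) and −0.37 ± 0.11 (adjusted p = 0.0401). Cul4b, of the ubiquitin ligase linked to AHR, fell by 0.48 in each genotype (adjusted p = 0.0312 and 0.0436). Hsp90ab1, which encodes an HSP90 chaperone, differed by 0.07 ± 0.23 in WT (adjusted p = 0.871) and 0.16 ± 0.22 in ΔEGFR (adjusted p = 0.668).

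Enzymes that make or clear AHR ligands, mostly of tryptophan breakdown, made up the list with the most calls. In WT 1 of 18 rose and 8 fell, and in ΔEGFR 1 rose and 5 fell, with medians of −0.82 and −0.84. Leaving out 1 library at a time, the counts of genes that fell ran from 3 to 10 in WT and 0 to 8 in ΔEGFR. The 12 hepatocyte markers were lower too, 12 of 12 below 0 in each genotype, with medians of −0.90 and −0.86, and the part of this shift in the enzyme values was not tested. Aadat, which makes kynurenic acid, fell in each genotype, with log2 fold changes of −2.39 ± 0.35 in WT (edgeR, adjusted p = 0.00363) and −1.63 ± 0.30 in ΔEGFR (adjusted p = 0.0192). Tdo2, the first enzyme of the pathway in liver, fell by 1.82 ± 0.39 in WT (adjusted p = 0.012) and stood at −1.12 ± 0.34 in ΔEGFR (adjusted p = 0.0768). Afmid, which makes kynurenine, fell likewise, with −2.09 ± 0.32 and −1.16 ± 0.28 (adjusted p = 0.00383 and 0.0401). Aox3, an aldehyde oxidase, also fell in each, with −2.17 ± 0.38 and −1.60 ± 0.33 (adjusted p = 0.00629 and 0.0259). Blvra, which makes bilirubin from biliverdin, rose by 1.23 ± 0.22 and 0.86 ± 0.20 (adjusted p = 0.00638 and 0.0385).

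Partners of P450 enzymes and heme genes leaned lower, with 0 of 12 called higher and 3 lower in WT and 0 and 1 in ΔEGFR (medians −0.64 and −0.39). Over left-out libraries the lower calls ran from 0 to 5 in WT and 0 to 4 in ΔEGFR. The hepatocyte markers had medians of −0.90 and −0.86, and the part of that shift here was not tested. Pgrmc1, a heme-binding partner of P450 enzymes, fell in each genotype, with −1.01 ± 0.21 (edgeR, adjusted p = 0.0115) and −0.96 ± 0.19 (adjusted p = 0.0229). Por, the reductase that feeds electrons to all microsomal P450 enzymes, stood at −1.06 ± 0.42 in WT (adjusted p = 0.114) and 0.10 ± 0.38 in ΔEGFR (adjusted p = 0.889).

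Regulators with known roles in Cyp1a2 or its zone were called lower 3 times of 16 and higher 1 time in WT, and 0 times by edgeR in ΔEGFR, where DESeq2 called 1 higher and 2 lower and limma 1 higher and 0 lower (medians −0.81 and −0.49). At an unadjusted p under 0.05 there were 10 of 16 in WT and 6 of 16 in ΔEGFR, beside 28.9% and 24.7% of all genes. Over left-out libraries the lower calls ran from 0 to 10 in WT, with 10 without WT mineral oil replicate 1, and from 0 to 3 in ΔEGFR. Without that replicate, 2528 of all 17798 genes were called lower in WT. Nr1i3, the receptor CAR, fell by 1.41 ± 0.37 in WT (edgeR, adjusted p = 0.0279) and stood at −0.92 ± 0.33 in ΔEGFR (adjusted p = 0.119). Hnf4a, a master factor of hepatocytes, fell by 0.98 ± 0.28 in WT (adjusted p = 0.0403) and stood at −0.87 ± 0.26 in ΔEGFR (adjusted p = 0.0735). Ctnnb1, which encodes β-catenin, rose by 0.93 ± 0.20 in WT (adjusted p = 0.0135). None of these was called for genotype. The 12 hepatocyte markers, Hnf4a among them, had medians of −0.90 in WT and −0.86 in ΔEGFR, with 12 of 12 below 0 in each. The part of this shift in the regulator values was not tested.

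Genes of the zone around the central vein, where Cyp1a2 is known to be expressed, had the lowest median in WT, −1.33 over 19 genes, beside −0.37 in ΔEGFR. In WT 6 were called lower and 1 higher, and in ΔEGFR 4 and 1. The lower calls, with 1 library left out, ran from 4 to 10 in WT and 2 to 5 in ΔEGFR. Hepatocyte markers had medians of −0.90 in WT and −0.86 in ΔEGFR, and their part in the zone values was not tested. Cyp2e1, the P450 that activates CCl4, fell by 3.38 ± 0.50 in WT (edgeR, adjusted p = 0.00382) and stood at −1.33 ± 0.41 in ΔEGFR (adjusted p = 0.0815). Under CCl4, 17 of 19 were higher in ΔEGFR than in WT, with a median of 0.70 beside −0.01 over all genes. None of the 19 was called for genotype, and 7 had an unadjusted p under 0.05 under CCl4, beside 2.29% of all genes. Axin2, a Wnt target, rose in ΔEGFR by 1.11 ± 0.28 (adjusted p = 0.0458).

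**Figure D4:**
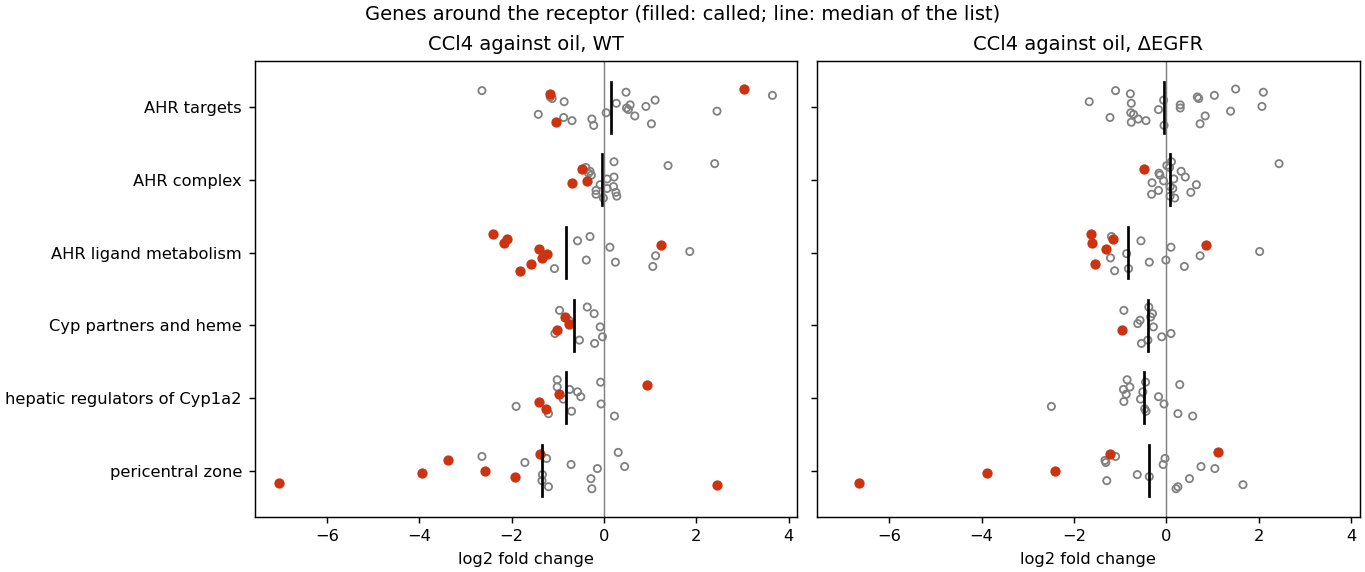
Log2 fold change with CCl4 (horizontal axes) of the single genes of 6 lists in WT and in ΔEGFR, with filled points for called genes and a line at the median of each list. AHR targets spread to either side of 0 (medians 0.16 and −0.06), and the medians of ligand metabolism lie to the left in each genotype (−0.82 and −0.84).

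The genes whose log2 CPM was most like that of each P450 gene over the 15 libraries, of 9659 compared, shared no gene between the sets of 6. For Cyp1a1 they were Fmo4 (Pearson's r 0.857), Exoc4 (0.819), Mfge8 (0.811), Cyp4a31 (0.811), Tceal9 (0.809) and Ptgfrn (0.803). Fmo4 was at 5.18 CPM with mineral oil and 10.7 with CCl4 in WT, and at 5.32 and 12 in ΔEGFR. For Cyp1a2 they were Rgn (0.873), Cyp2e1 (0.87), Shmt1 (0.859), Bbox1 (0.851), Klhdc7a (0.85) and Acsm3 (0.849). Cyp2e1 was at 6435 and 619 CPM in WT and at 5009 and 1993 CPM in ΔEGFR, in the same order. All these libraries share their treatment groups and depth ranges, and the values are descriptive.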

How the data were processed

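Messenger RNA was sequenced after library preparation with the KAPA stranded kit, per the labels' protocols. Per the submitters' processing notes, the authors used STAR 2.7.8a and RSEM 1.3.0 with GRCm39; the annotation release and strand setting are not given in the sources used here. The deposited files hold RSEM expected counts and TPM, printed to 2 decimals. Here expected counts were rounded, filtered with filterByExpr (minimum count 10, minimum total 15; 17975 genes left), scaled by TMM and fitted with edgeR 4.0.16 (robust quasi-likelihood, 1 mean per group, 15 libraries, R 4.3.3). A gene was called at a Benjamini-Hochberg adjusted p under 0.05. Log2 CPM used a prior count of 2. The standard error of a log2 fold change was derived from the quasi-likelihood test, as its size divided by the square root of the F statistic. Names were joined by Ensembl ID for 52029 of 56953 genes (91.4%). DESeq2 1.42.0, limma 3.58.1, other scalings and filters, a depth covariate and left-out libraries were alternatives.

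The members, the 14 lists and the rule for naming genes (all 7 members, the 6 called genes of a list with the lowest adjusted p in each CCl4 comparison, up to 4 partners, and the 6 genes most like each of Cyp1a1 and Cyp1a2) were chosen with earlier results of these data known. The text prints a selection of them. Tests were tested on simulated data, where the interaction test recovered few large changes, so its lack of calls says little. A first pass criterion on that recovery was missed and then replaced by one on signs and false calls. Reads carry no molecular identifiers.

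Of the marker lists, with CCl4 macrophage genes were called higher in 4 of 18 cases in WT and 2 in ΔEGFR, and stellate genes in 4 and 0 of 16. Endothelial genes were called higher in 1 and 1 of 14, cholangiocyte genes in 2 and 0 of 7 tested, and lymphocyte and neutrophil genes in 1 and 0 of 14. None of these was called lower. Of all tested genes, 5.31% were called higher in WT and 1.77% in ΔEGFR, and 7.2% and 2.38% lower. Lymphocyte and neutrophil genes had a median log2 fold change of −1.23 in WT, with 9 of 14 below 0. Their summed level was 5204 TPM in WT mineral oil replicate 1 and 7.06, 5.42 and 76.7 TPM in the others of that group. In WT CCl4 it was 262 to 1173 TPM, so no fall with CCl4 is read from this median. The median without that replicate was not computed. Hepatocyte genes were called lower in 6 and 2 of 12 cases, and 0 of 21 early dissociation genes were called in either genotype.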

Additional observations from a re-analysis of the deposited data

Results flagged for a closer look

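Tiparp in WT mineral oil replicate 1 stood at 75.9 CPM, against 4.63 to 6.3 CPM in the other 3 libraries of the group. Its gap to the nearest library was 0.977 of the range of the group. Ahr in ΔEGFR CCl4 replicate 3 stood at 62.2 CPM, against 52.6 to 54.2 CPM in the other 3, with a gap of 0.833 of the range. By TPM that library (20.58) was not the highest of its group for Ahr (21.76). Of 21 sets of 4 libraries (the 7 genes in 3 groups) looked at this way 2 stood out, and chance alone picks about 1 in 20.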

How the results depend on the processing

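No paired analysis was possible because the labels give neither replicate numbers nor any link between libraries of different groups. Of 492 alternative values of the 7 genes in the genotype comparisons and the interaction, 0 were called (lowest adjusted p 0.311), and DESeq2 gave no adjusted p for Tiparp. Cyp1a1, Cyp1a2 and Ahr kept their direction in each alternative run for the genotype difference under CCl4 (0.92 to 1.83, 1.05 to 1.45 and 0.43 to 0.90). So did Cyp1b1, Tiparp and Arnt (−1.56 to −0.32, −1.0 to −0.37 and −0.18 to −0.06), and only Ahrr did not (−0.12 to 0.53).

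With CCl4, limma on log2(TPM + 1) gave Cyp1a1 0.79 in WT and 1.70 in ΔEGFR and Cyp1a2 −1.02 and 0.42, Arnt 0.20 and 0.39, Cyp1b1 0.58 and 0.22, Ahrr 0.15 and 0.09, and Tiparp −0.03 and 0.39, since the added 1 shrinks low levels. No scaling factor gave Cyp1a2 −1.12 and 0.36 and Arnt 0.18 and 0.36. For genotype, limma gave Ahrr 0.04 in mineral oil, −0.02 under CCl4 and −0.06 for the interaction. The depth covariate gave Cyp1a2 0.16 and Ahr 0.13 in mineral oil and Ahrr −0.12 under CCl4, and no low-count filter gave Ahr 0.03. The ratio under CCl4 became −0.29 with 1 TPM added to each gene. The cause was not tested.

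Leaving out 1 library at a time, the mineral oil genotype difference ran from −0.18 to 0.32 for Cyp1a1, −0.43 to 0.05 for Cyp1a2, −0.22 to 0.14 for Ahr, −2.23 to 0.13 for Tiparp and −0.04 to 0.63 for the ratio. Under CCl4 it ran from −0.03 to 0.53 for Ahrr and −0.08 to 0.34 for the ratio. Tiparp ran from −1.70 to 0.67 with CCl4 in WT and −0.66 to 1.69 for the interaction, with the sign changed without WT mineral oil replicate 1.

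Pathway genes called higher in WT numbered 10 with no scaling factor, 0 with only the groups compared and 10 with limma (2 to 10 over left-out libraries), and lower 16, 8 and 11 (8 to 41). In that order, calls over all genes in WT were 2326, 191 and 2874 higher and 515, 342 and 348 lower. In ΔEGFR, higher counts were 5, 5 and 8 in that order, 1 without the filter, 4 with the depth covariate and 4 with DESeq2 (0 to 5). Over all genes the higher calls were 997, 698, 2129, 177, 646 and 1334 in these settings. Lower counts were 21 with the depth covariate, 18 with only the groups compared, 19 with DESeq2 and 4 with limma (2 to 21). Over all genes the lower calls were 997, 588, 1064 and 142 in these settings. The lowest counts came without WT CCl4 replicate 3 in WT, and without ΔEGFR mineral oil replicate 4 or ΔEGFR CCl4 replicate 1 or 2 in ΔEGFR. Counts under 50 limit Cyp1b1 and Ahrr in mineral oil, and also Cyp1a1 there, at 22 to 48 in WT and 45 to 95 in ΔEGFR. With CCl4, Ahrr counts were 16 to 34 in WT and 12 to 69 in ΔEGFR, and Cyp1b1 counts 37 to 94 in ΔEGFR.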
